A study of Mus musculus with 18 samples.

Results

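Ccl2, Ccl7, Ccl11, Ccl12 and Ccl8 form a cluster of C-C chemokine genes on mouse chromosome 11. They were taken as the gene models whose exons all lie within a window from 81845000 to 81935000 on build mm9, which finds 5 of the 27473 gene models counted. In the 12 libraries with short hairpin RNAs, the 4 cluster genes with enough reads to test were higher with lipopolysaccharide (LPS), Ccl2 reaching the highest level, and Ccl12 stayed at 2 reads or fewer in every library. In the cells with the hairpin against Irf3 the level of Ccl8 was several times that with the control hairpin. This difference is taken here as the ground on which the region was chosen. Without LPS, Ccl2, Ccl7 and Ccl11 did not pass the test between the hairpins, in which 1281 of 14970 gene models were called. With LPS, Ccl7 and Ccl11 were called higher with the Irf3 hairpin, as were 4.9% of gene models, and Ccl2 missed the threshold. The calls of Ccl7 and Ccl11 did not hold in every alternative fit.

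Chemokines are small secreted proteins that draw leukocytes along a gradient by binding G protein-coupled receptors on them. The genes of this cluster encode monocyte chemoattractant proteins (MCPs) and the related eotaxin: Ccl2 encodes MCP-1 and Ccl12 MCP-5, ligands of the receptor CCR2 on monocytes, Ccl7 encodes MCP-3, which also binds CCR2, Ccl8 encodes MCP-2, and Ccl11 encodes eotaxin, a ligand of CCR3 that attracts eosinophils. Adipocytes secrete CCL2, and its production in obese fat is linked to the entry of macrophages. LPS, a bacterial cell wall component, acts through Toll-like receptor 4, which activates both NF-kappaB and the transcription factor IRF3.

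RNA was sequenced from 18 libraries of 3T3-L1 cells, a mouse fibroblast line differentiated into adipocytes, all at passage 15 and all transduced with lentivirus for 6 days, in 6 groups of 3. In the overexpression arm, Irf3_2D cells carry an Irf3 vector whose suffix 2D is not explained, and EGFP cells carry a fluorescent protein vector as their control. In the hairpin arm, shIrf3 cells received an Irf3 hairpin and shLuc cells a luciferase hairpin, and both were sequenced untreated and after LPS. LPS treatment lasted a further 6 days, a duration stated for the knockdown cells, with LPS renewed every other day. For shLuc cells with LPS no duration is given. Between the hairpins under LPS, effects of the hairpin and of LPS duration therefore cannot be told apart. Whether cells without LPS were kept as long is not given, so effects of LPS and of culture time cannot be told apart. Whether replicate libraries are separate cultures is not in the labels, and p-values reflect a spread between libraries that may be technical. Each RNA comes from whole cultures, where fewer cells of a type and less RNA per cell cannot be told apart.

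The libraries held 22143302 to 34368259 counted reads. The share of reads on mitochondrial gene models was 2.88% to 14.2% in the 3 shLuc libraries and 2.17% to 7.17% in the other 15, and results that rest on shLuc were also computed without each of its libraries. The table has no gene symbols, and 0 of its identifiers occur in the name tables used here. Irf3 itself, markers of adipocytes and leukocytes, chemokine receptors and LPS signalling genes were therefore not analysed here, and a part of other cell types in the results was not tested.

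All 5 genes lie on the plus strand, with 3 exons each. Ccl2 (uc007kmp.1) spans 81849079 to 81850954, Ccl7 (uc007kmq.2) 81859214 to 81861025, Ccl11 (uc007kmr.2) 81871334 to 81876457, Ccl12 (uc007kms.1) 81915347 to 81916901 and Ccl8 (uc007kmt.2) 81928687 to 81930301. The names follow the order of positions given with the window, which is also the RefSeq order on GRCm38. RefSeq gives the same spans for 4 of the genes (1876, 5124, 1555 and 1615 bases for Ccl2, Ccl11, Ccl12 and Ccl8) and 1814 against 1812 bases for Ccl7. The widest gap, 38889 bases, separates Ccl11 from Ccl12, and Ccl12 lies 11785 bases from Ccl8.

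The genes are related but not near-identical. In aligned GENCODE M21 transcripts, 64.0% to 68.7% of bases matched between pairs, and the longest identical run was 23 bases, between Ccl2 and Ccl7. In the same annotation the span of a gene on the other strand, Gm17268, overlaps that of Ccl2. The library kit does not mark strand, so any reads of Gm17268 on Ccl2 exons cannot be told from reads of Ccl2. Whether exons of the pair overlap was not examined. No other cluster gene is overlapped there.

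The promoters of Ccl12 and Ccl8, neighbours in the cluster, are shown because the RefSeq promoter table (GRCm38.p6) held these 2 of the 5 members, so that the pair was set by what the table holds. The gene with the fewest reads and the one with the largest hairpin difference are thus seen side by side, and the 250 bases before each start are given 5′ to 3′ on the plus strand, at chr11:82101595-82101844 for Ccl12 and chr11:82114935-82115184 for Ccl8. Capitals mark TATAAA.
Ccl12: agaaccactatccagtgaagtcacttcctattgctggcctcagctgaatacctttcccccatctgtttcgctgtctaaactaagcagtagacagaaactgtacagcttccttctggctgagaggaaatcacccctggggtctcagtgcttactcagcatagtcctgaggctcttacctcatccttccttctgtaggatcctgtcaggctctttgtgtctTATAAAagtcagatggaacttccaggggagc
Ccl8: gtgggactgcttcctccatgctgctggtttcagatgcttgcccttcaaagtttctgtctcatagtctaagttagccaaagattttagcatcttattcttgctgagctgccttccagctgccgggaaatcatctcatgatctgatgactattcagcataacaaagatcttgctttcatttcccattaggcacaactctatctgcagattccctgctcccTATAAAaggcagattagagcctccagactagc
In an alignment of the pair, 150 of 228 aligned bases were identical (65.8%). Both hold TATAAA on the plus strand, with the first base 31 bases before the start in Ccl12 and 32 in Ccl8, a match found on either strand in 12.4% of the 32851 promoters of that length. Also searched on both strands were the core of interferon-stimulated response elements, found in 2.98% of promoters, TGANTCA, bound by AP-1 proteins and found in 6.75%, and the NF-kappaB consensus, found in 3.90%. None of these 3 motifs occurred in the 2 windows, which says nothing about factors bound elsewhere.

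**Figure D1:**
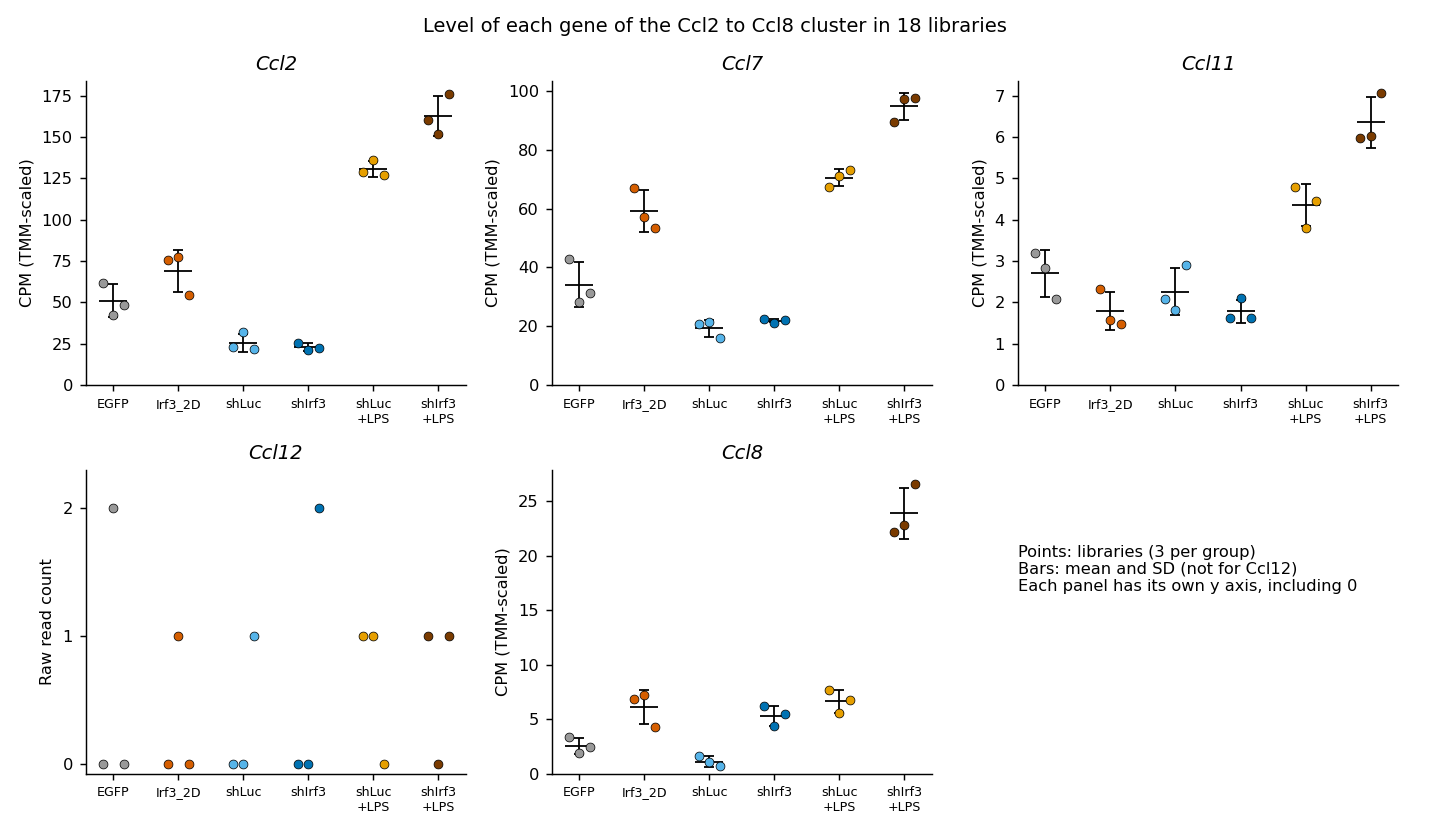
Level of each cluster gene in the 18 libraries by group, in TMM-scaled CPM (reads scaled to library size), or raw reads for Ccl12, with points for libraries and bars for the mean and SD of 3. The LPS groups are highest for Ccl2, Ccl7 and Ccl11, Ccl8 is highest in shIrf3 with LPS at 22.2 to 26.6 CPM, and Ccl12 stays at 2 reads or fewer.

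Levels are given as CPM, read counts scaled to library size, with TMM factors over all 18 libraries, and between genes only per kilobase of exon. Ccl2 and Ccl7 were the main transcripts of the cluster. In shLuc, Ccl2 stood at 31.8 ± 6.81 CPM per kb (SD, n = 3), Ccl7 at 24.2 ± 3.71, Ccl8 at 2.18 ± 0.915 and Ccl11 at 2.11 ± 0.528. By this measure Ccl2 ranked 1942nd and Ccl7 2619th of the 27473 gene models, against 9782nd for Ccl8 and 9845th for Ccl11. With LPS Ccl2 ranked 288th in shLuc cells and 215th in shIrf3 cells.

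Ccl12 was near the limit of detection. It had 10 reads over the 18 libraries, with 1 or 2 in each group, and 0 reads in 10 libraries. Over the 3 libraries of a group, 3 reads correspond to 0.0331 to 0.0390 CPM. The exact Poisson 95% interval of its level reached no higher than 0.0938 CPM in any group, an interval that covers counting error only. No fold change is given for it, and it did not pass the low-count filter. The other 4 genes passed and had at least 18 reads in every library.

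The first comparison asks how control adipocytes with the luciferase hairpin responded to LPS. All 4 tested genes were higher with LPS, Ccl8 by 5.88-fold, Ccl2 by 5.13-fold, Ccl7 by 3.66-fold and Ccl11 by 1.94-fold. A gene was called when the edgeR quasi-likelihood test gave a Benjamini-Hochberg adjusted p under 0.05 over all gene models, and 4.27% of the 14970 gene models tested were called higher. Every LPS library lay above every library without LPS for the 4 genes, and for 9.99% of gene models. The median log2 fold change was 2.12 over the 4 genes and -0.01 over all gene models tested.

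Ccl2, the CCR2 ligand MCP-1, was at 23.1, 31.9 and 21.9 CPM in shLuc replicates 1 to 3 and at 129, 136 and 127 CPM with LPS. The groups did not overlap, and the log2 fold change was 2.36 ± 0.12 (SE, adjusted p = 2.79e-09). Ccl7, encoding MCP-3, went from 20.6, 21.4 and 15.9 CPM to 67.3, 71.1 and 73.0 CPM. Its log2 fold change was 1.87 ± 0.09 (adjusted p = 3.16e-10).

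Ccl8, encoding MCP-2, was at 1.61, 1.06 and 0.677 CPM in shLuc and at 7.64, 5.56 and 6.74 CPM with LPS. Its log2 fold change was 2.56 ± 0.23 (adjusted p = 1.52e-06). It rested on 18 to 48 reads per shLuc library. Over the 22 alternatives, single libraries left out included, the log2 fold change stayed between 2.31 and 2.94. These Ccl8 levels also enter the hairpin differences taken as the ground for choosing the region. The test of LPS for Ccl8 is therefore not independent of that choice. Ccl11, the eotaxin gene, rose from 2.08, 1.81 and 2.90 CPM to 4.803, 3.80 and 4.46 CPM, with no overlap of the groups. At 0.95 ± 0.18 (adjusted p = 0.00207) its log2 fold change was the smallest of the 4.

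In cells with the Irf3 hairpin the same 4 genes were higher with LPS, where 4.17% of gene models were called higher. Their median log2 fold change was 2.19, against 0.0026 over all gene models tested. Ccl2 went from 25.7, 20.99 and 22.3 CPM in shIrf3 to 160.3, 152 and 176 CPM with LPS, a log2 fold change of 2.87 ± 0.12 (adjusted p = 3.00e-10). That is 7.32-fold, the largest LPS response among the cluster genes in either hairpin. Ccl7 went from 22.3, 21.2 and 22.2 CPM to 89.6, 97.2 and 97.6 CPM, a log2 fold change of 2.16 ± 0.09 (adjusted p = 4.21e-11). The 3 libraries without LPS lay close together and far below those with LPS.

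Ccl11 went from 1.62, 2.10 and 1.63 CPM to 5.98, 6.02 and 7.07 CPM, a log2 fold change of 1.87 ± 0.18 (adjusted p = 3.57e-06). Ccl8 started higher in these cells, at 6.18, 4.35 and 5.45 CPM, and reached 22.2, 22.9 and 26.6 CPM with LPS. Its log2 fold change was 2.22 ± 0.18 (adjusted p = 5.71e-07), a 4.65-fold rise. Both groups enter the Ccl8 hairpin differences taken as the ground for choosing the region, so this test is not independent of that choice. No group overlapped for these 4 genes, against 13% of gene models with every LPS library higher.

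**Figure D2:**
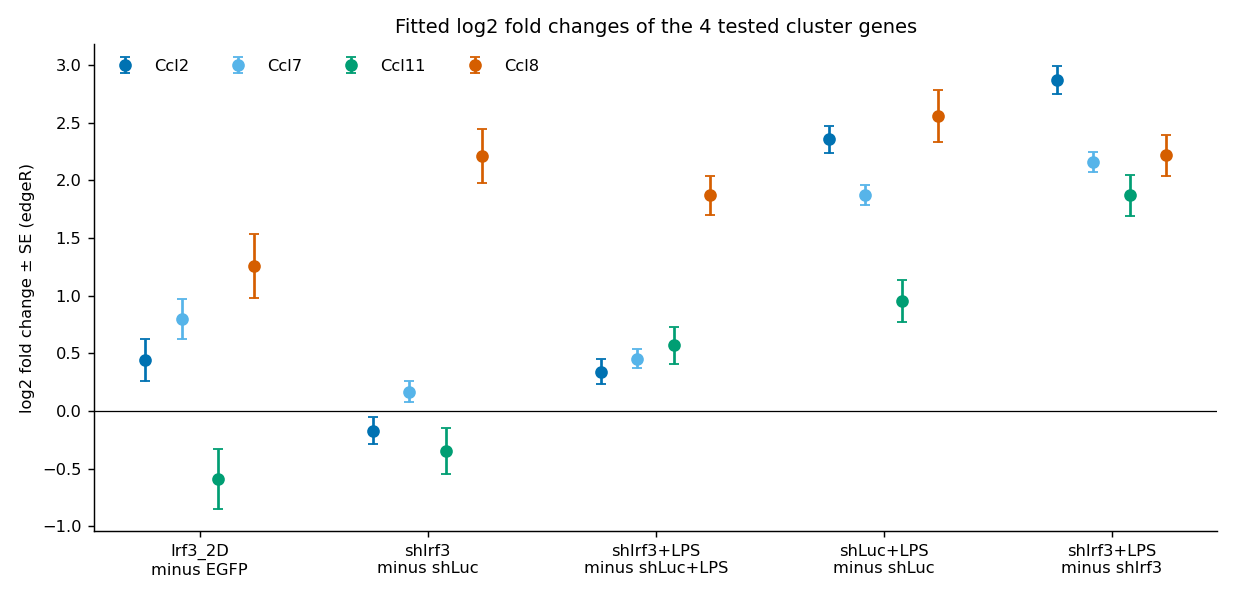
Fitted log2 fold changes (y axis, edgeR, with SE) of Ccl2, Ccl7, Ccl11 and Ccl8 in 5 comparisons (x axis). All 4 lie above 0 for LPS with either hairpin, from 0.95 to 2.87, and Ccl8 alone lies above 1 for the Irf3 hairpin without LPS.

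With the Irf3 hairpin and no LPS, neither of the cluster's 2 most abundant genes passed the test, nor did Ccl11. Ccl2 had a log2 fold change of -0.17 ± 0.12 (adjusted p = 0.424), Ccl7 of 0.17 ± 0.09 (adjusted p = 0.297) and Ccl11 of -0.35 ± 0.20 (adjusted p = 0.323). For each of the 3 the shIrf3 and shLuc libraries overlapped, and none had an unadjusted p under 0.05. DESeq2 and limma-voom called 0 of them. Of the 14970 gene models tested, 23.0% had an unadjusted p under 0.05 and edgeR called 1281. DESeq2 called 10.45% and limma-voom 8.34%. With only 3 genes, these counts of 0 do not set them apart from other gene models. The 95% intervals ran from -0.42 to 0.08 for Ccl2, from -0.03 to 0.36 for Ccl7 and from -0.77 to 0.08 for Ccl11. These small values moved with single control libraries. Without shLuc replicate 2, the library with the highest Ccl2 of its group, the log2 fold change of Ccl2 was 0.0014. Without shLuc replicate 3 it was -0.27 for Ccl2, 0.048 for Ccl7 and -0.13 for Ccl11.

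The window was set by position, but the region had been chosen by the knockdown values of Ccl8, with and without LPS, which are therefore described without a test. Its 3 shIrf3 libraries, at 4.35 to 6.18 CPM, lay above the 3 shLuc libraries, at 0.677 to 1.61 CPM. The log2 fold change of 2.21 ± 0.23, or 4.63-fold, ranked 11th from the top among 14970 gene models, of which 4.65% were called higher. Leaving out single libraries moved it between 1.97 and 2.59.

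With LPS, Ccl2, Ccl7 and Ccl11 had higher levels in each library with the Irf3 hairpin than in any control library. This held for 14.9% of gene models. The values of these 3 genes were not taken as the ground for choosing the region. Of these 3, Ccl7 and Ccl11 were called higher, and 4.9% of gene models were. Ccl7, at 89.6 to 97.6 CPM against 67.3 to 73.0 CPM, had a log2 fold change of 0.45 ± 0.08 (adjusted p = 0.00294), and Ccl11, at 5.98 to 7.07 against 3.80 to 4.803 CPM, one of 0.57 ± 0.16 (adjusted p = 0.0400). Ccl2, at 152 to 176 against 127 to 136 CPM, had a log2 fold change of 0.34 ± 0.11 that missed the threshold (adjusted p = 0.0686). Ccl8 stood at 22.2 to 26.6 CPM against 5.56 to 7.64 CPM, a log2 fold change of 1.87 ± 0.17 given as a description, 20th from the top. The median log2 fold change over the other 3 genes was 0.45 and that over all gene models 0.0012.

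These calls were not equally firm. That of Ccl7 ended with all 18 libraries in one fit (log2 fold change 0.43, adjusted p = 0.0931), which called 2.51% of gene models. That of Ccl11 ended in 10 of 22 alternatives, among them each fit without one of the 6 libraries compared, at log2 fold changes from 0.48 to 0.66. Ccl2 was called in 5 of 22, including DESeq2 (adjusted p = 0.0320) and limma-voom (adjusted p = 0.0497). There DESeq2 called 9.81% and limma-voom 8.07% of gene models in either direction. The other fits that called Ccl2 called 13.5% (without shLuc replicate 1), 14.8% (without shLuc replicate 2) and 19.4% (only the 6 libraries compared).

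Whether the response to LPS differed between the hairpins was tested as an interaction. Ccl8 is left out of the counts of cluster genes here. Its interaction is the difference of the knockdown values taken as the ground for choosing the region. None of Ccl2, Ccl7 and Ccl11 passed, nor did any of the 14970 gene models (0% called). Neither DESeq2 nor limma-voom called any of the 3 genes. Over all gene models DESeq2 called 15 and limma-voom 0, and edgeR called 15 without shLuc replicate 1 and 16 without shLuc replicate 2. Ccl2, Ccl7 and Ccl11 each had an unadjusted p under 0.05, as did 5.66% of gene models. The LPS response in shIrf3 cells exceeded that in shLuc cells by 0.51 ± 0.16 (log2, 95% interval 0.17 to 0.86, adjusted p = 0.769) for Ccl2, by 0.29 ± 0.12 (0.03 to 0.55, adjusted p = 0.822) for Ccl7 and by 0.92 ± 0.26 (0.37 to 1.46, adjusted p = 0.678) for Ccl11.

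For Ccl8 the difference had the other sign, at -0.34 ± 0.29, given as a description without a test. The 4 group means of Ccl8 were 1.12 ± 0.468 CPM in shLuc, 5.33 ± 0.917 in shIrf3, 6.65 ± 1.04 in shLuc after LPS and 23.9 ± 2.37 in LPS-treated shIrf3 cells. The libraries of shIrf3 and of shLuc with LPS overlapped, and those of shIrf3 with LPS stood above all others.

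In the other arm, Irf3_2D was compared with EGFP. Ccl8 and Ccl7 were at higher levels in every Irf3_2D library than in any EGFP library, but no cluster gene was called by edgeR, where 1.45% of 13931 gene models were. Groups that did not overlap, with Irf3_2D higher, were found for 2 of the 4 genes and for 8.35% of gene models. Ccl8 was at 3.34, 1.90 and 2.43 CPM in EGFP and at 6.85, 7.21 and 4.32 CPM in Irf3_2D. The log2 fold change was 1.26 ± 0.28 (adjusted p = 0.0725), or 2.39-fold. Ccl7 went from 42.8, 28.2 and 31.3 CPM to 67.1, 57.3 and 53.4 CPM, a log2 fold change of 0.80 ± 0.17 (adjusted p = 0.0725).

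Ccl2 overlapped between the groups, with 61.8, 42.4 and 48.4 CPM in EGFP and 75.5, 77.5 and 54.4 CPM in Irf3_2D (log2 fold change 0.44 ± 0.18, adjusted p = 0.414). Ccl11 had the opposite sign, at 3.18, 2.84 and 2.08 CPM in EGFP and 2.31, 1.57 and 1.47 CPM in Irf3_2D (log2 fold change -0.59 ± 0.26, adjusted p = 0.460). At an unadjusted p under 0.05 there were 3 of the 4 genes, against 10.9% of gene models. DESeq2, which called 3.45% of all gene models, called Ccl7 and Ccl8 (adjusted p = 0.00337 and 0.00127), and limma-voom called 0 cluster genes and 1.74% of gene models. Of the 6 edgeR fits that left out 1 library, 2 called both genes. These were the fit without Irf3_2D replicate 2 (log2 fold change 0.81 for Ccl7 and 1.13 for Ccl8), where 7.18% of gene models were called, and the fit without EGFP replicate 1 (0.99 and 1.503), where 1.93% were. The other 4 called neither gene, at adjusted p from 0.0801 to 0.356, and called 0.0351% to 0.388% of gene models.

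Across the 6 groups the levels had different orders for different genes. For Ccl2 the order from low to high was shIrf3, shLuc, EGFP, Irf3_2D, shLuc with LPS and shIrf3 with LPS, and the first pair and the pair of EGFP and Irf3_2D overlapped. Ccl7 had the same order but for shLuc and shIrf3, which overlapped. For Ccl11 the 4 groups without LPS overlapped with their neighbours in the order, at 1.78 to 2.70 CPM on average, below both LPS groups. For Ccl8 the order was shLuc, EGFP, shIrf3, Irf3_2D, shLuc with LPS and shIrf3 with LPS, where shIrf3, Irf3_2D and shLuc with LPS overlapped with their neighbours. The 2 control vectors differed in level, with Ccl2 at 50.9 ± 9.92 CPM in EGFP and 25.6 ± 5.49 in shLuc, and vector and arm cannot be told apart there.

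The make-up of the cluster changed with these levels. Per exon length, Ccl2 and Ccl7 held 52.5% ± 4.23 and 40.2% ± 2.83 of the summed level of the 5 genes in shLuc (SD, n = 3). With LPS the Ccl2 share was 60.6% ± 1.45 and the Ccl7 share 33.0% ± 1.24 in these cells. In each shLuc library with LPS, Ccl2 took a larger share and Ccl7 a smaller one than in any shLuc library without it.

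Ccl8 held 3.62% ± 1.46 of the summed level in shLuc, 15.2% ± 1.54 in shIrf3, 4.88% ± 0.841 in shLuc after LPS and 12.5% ± 0.492 in LPS-treated shIrf3 cells. In the other arm its share was 4.37% ± 0.391 in EGFP and 6.83% ± 0.912 in Irf3_2D, with no overlap. The larger shares in the 2 groups with the Irf3 hairpin restate the knockdown values taken as the ground for choosing the region. The summed level itself was 60.3 ± 9.51 CPM per kb in shLuc, 68.1 ± 5.17 in shIrf3, 267 ± 4.48 in shLuc after LPS and 373 ± 22.6 in LPS-treated shIrf3 cells. Ccl11 held 0.954% to 3.65% on average and Ccl12 at most 0.0695%.

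**Figure D3:**
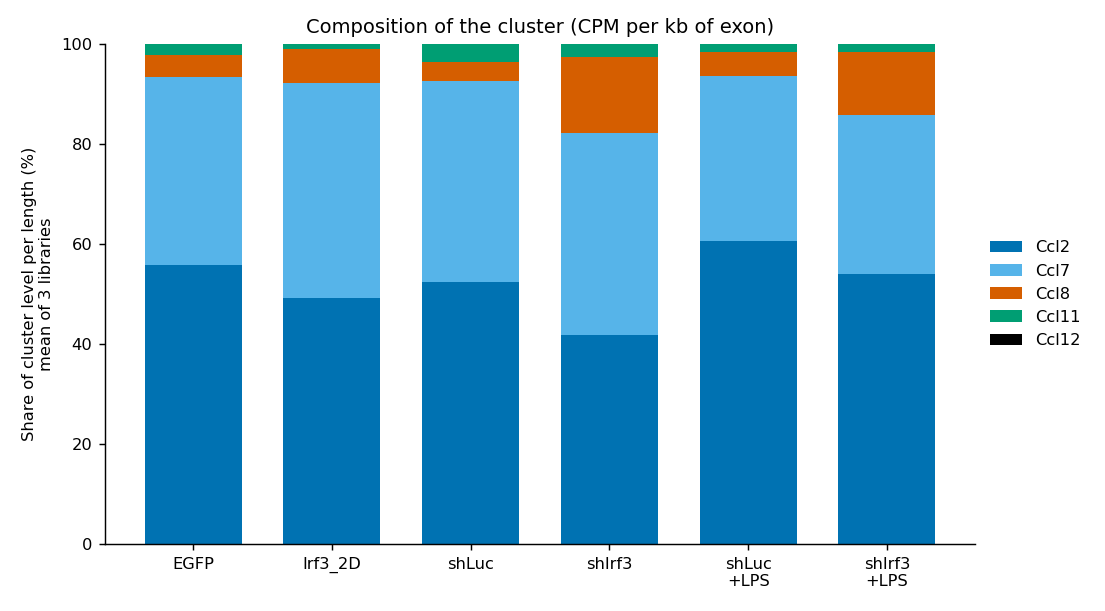
Mean share of each gene (y axis, percent of the summed CPM per kb of exon of the 5 genes, mean of 3 libraries) in the 6 groups (x axis). The Ccl8 share is 15.2% and 12.5% in the 2 shIrf3 groups and 3.62% to 6.83% in the other 4.

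Over the 12 hairpin libraries the genes differed in how closely they followed each other. Pearson's r of log2 CPM is given as a description, since these libraries share the LPS groups. Ccl2 and Ccl7 had r = 0.988, and each ranked 4th among the 14969 other gene models by likeness to the other. Ccl11 had r = 0.924 with Ccl2 and 0.916 with Ccl7. The raised Ccl8 levels with the Irf3 hairpin enter these correlations, and they are the values taken as the ground for choosing the region. In these 12 libraries Ccl8 was least like the rest, with r = 0.838 to Ccl7, 0.760 to Ccl2 and 0.702 to Ccl11, and it ranked 316th by likeness to Ccl7. Over all 18 libraries Ccl11 took that place, with r = 0.775 to Ccl2, 0.682 to Ccl7 and 0.583 to Ccl8, against 0.749 between Ccl8 and Ccl2 and 0.822 between Ccl8 and Ccl7, while Ccl2 and Ccl7 had r = 0.971. Outside the cluster and over the 12 libraries, the gene models most like the mean pattern of the 4 genes were both on chromosome 5, uc008ybs.1 (91480897 to 91522675, r = 0.990), whose exons lie on both strands, and uc008woj.1 (20692085 to 20797519, r = 0.987). Over the 18 libraries the most alike was uc008ybl.2 (chromosome 5, 91320271 to 91322141, r = 0.969), followed by uc008ybs.1 (r = 0.961).

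**Figure D4:**
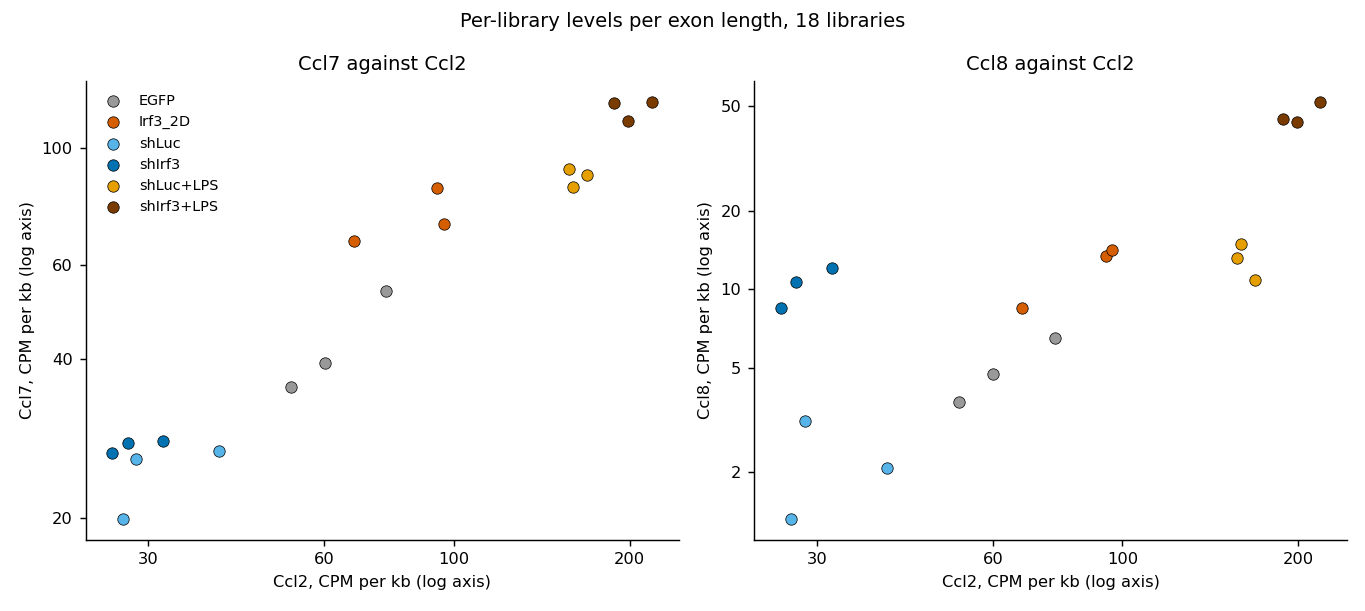
Level per library of Ccl7 (left) and Ccl8 (right) against Ccl2, in CPM per kb on log axes, for 18 libraries coloured by group. Ccl7 follows Ccl2 across groups, whereas the 3 shIrf3 libraries, at 8.52 to 12.1 CPM per kb of Ccl8, lie above the 3 shLuc libraries at like Ccl2 levels. That Ccl8 difference was taken as a ground for choosing the region.

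The gene models that flank the window were set beside the cluster. The nearest on each side held 16 and 6 reads over all 18 libraries. Of the 5 nearest on each side with any reads, 6 of the 10 were tested in the hairpin arm and 5 in the other. Of these, edgeR, DESeq2 and limma-voom each called 0 in all 6 comparisons. For LPS in control cells DESeq2 called 10.2% and limma-voom 8.53% of all gene models. Leaving out shLuc replicate 1 or 2, edgeR called 1 flank there. At an unadjusted p under 0.05 there were 2 for LPS in control cells, 1 for LPS in knockdown cells and 1 for knockdown without LPS. Over all gene models these shares were 20.9%, 21.9% and 23.0%. With so few flanks, these counts do not set them apart from other gene models. The flanking log2 fold changes ran from -0.28 to 0.49 for LPS in control cells and from -0.21 to 0.65 in knockdown cells, below those of the 4 tested cluster genes. With the Irf3 hairpin they ran from -0.63 to 0.08 without LPS and from -0.25 to 0.78 with LPS. The upper end with LPS lay above Ccl2 (0.34), Ccl7 (0.45) and Ccl11 (0.57) and below Ccl8 (1.87), though no flank was called there.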

How the data were processed

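Per the labels' protocols, RNA came from Trizol and a column kit, 70 ng was depleted of ribosomal RNA, and TruSeq RNA v2 libraries were made. TopHat2 2.0.14, featureCounts 1.4.6 and build mm9 are named in the submitters' processing notes, with settings not given in the sources used here. Deposited by the authors are unnormalised counts of reads for each gene model and, per the file headers, exon positions and exon length.

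Groups were taken from sample titles. Counts were tested over all gene models with edgeR 4.0.16 (R 4.3.3, filterByExpr by group, TMM, robust glmQLFit and glmQLFTest), from 6 libraries for Irf3_2D against EGFP and from 12 for the hairpin arm (5 contrasts), with Benjamini-Hochberg adjustment and a threshold of 0.05. Standard errors are the log2 fold change over the square root of F. Intervals are 95%. Log2 CPM used a prior count of 2. The step was tested on simulated counts. Also run were RLE factors, library totals, other filters, voom from limma 3.58.1, DESeq2 1.42.0, the replicate number as a block, single libraries left out, other sets of libraries and no chromosome M gene models.

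The members and lists were chosen with earlier results of these data known. All 5 members are named. Flanks are the 5 nearest gene models per side with reads. Likeness names the 2 gene models with the highest Pearson r to the members' mean standardised log2 CPM. Lists that need symbols were not used.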

Additional observations from a re-analysis of the deposited data

How the results depend on the processing

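The number of cluster genes called, Ccl8 included, was the same in all alternatives for LPS in control cells (4) and LPS in knockdown cells (4). Leaving aside Ccl8, whose knockdown values were taken as the ground for choosing the region, it was also the same for knockdown (0 of 3) and the interaction (0). For Irf3_2D against EGFP, with 0 called, it was 2 with DESeq2, with no low-count filter, with the replicate number as a block and when all 18 libraries shared a fit, and 0 to 2 with single libraries left out. For knockdown under LPS, again without Ccl8 and with 2 of 3 called, it was 0 when all 18 shared a fit, 1 with library totals as the only scaling and 1 to 3 with single libraries left out. Refitted log2 fold changes of single cluster genes numbered 452, without the knockdown values of Ccl8 but with its interaction. Of these, 423 kept their direction and their side of the threshold and 1 reversed. The reversed value was that of Ccl2 for knockdown without shLuc replicate 2, at 0.0014 (lowest of the fits without single libraries -0.27), and the cause was not tested. Over all alternatives the share of all gene models called had these ranges: LPS in knockdown cells 4.12% to 20.02%, LPS in control cells 4.58% to 14.05%, the Irf3 hairpin 2.56% to 18.1% without LPS and 2.51% to 19.4% with it, Irf3_2D against EGFP 0.0351% to 7.18%, and the interaction 0% to 0.105%. With all 18 libraries in place of 12, 6 of 12 correlations between cluster genes, each pair counted from both sides, moved by 0.1 or more, all of them pairs with Ccl11. With library totals as the only scaling, 704 gene models were higher and 345 lower for knockdown (696 and 585 with TMM), 823 and 321 for LPS in control (639 and 666) and 592 and 313 for LPS in knockdown (624 and 575). Without division by exon length the Ccl8 share of the cluster was 10.2% in shIrf3 and 2.31% in shLuc.

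Libraries with the same replicate number did not deviate together in every pair, with correlations of their deviations from the group means from -0.26 to 0.30, so the number was not taken as a pairing. With the replicate block Ccl7 (log2 fold change 0.81, adjusted p = 0.0249) and Ccl8 (1.26, adjusted p = 0.0457) were called for Irf3_2D against EGFP. That fit called 1.69% of gene models, against 1.45% without the block. The calls of cluster genes in the other comparisons were the same in number. Depth limits Ccl12, and Ccl8 in shLuc, which rests on 18 to 48 reads per library.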
